A study of Homo sapiens with 4 samples.

Results

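The genes described here encode the subunits of the CCT chaperonin, also called TRiC, and were selected by gene symbol in the array's annotation: TCP1, CCT2, CCT3, CCT4, CCT5, CCT6A, CCT7 and CCT8. Of these 8 genes, 7 were paired with a probe set, 1 each, among 21448 probe sets in all. TCP1, the gene of the alpha subunit, was not analysed here because the annotation used lists no probe set under that symbol. RNA came from the Jurkat line, an established cell line grown from a human T-cell leukemia, and was read on human Clariom S arrays, which measure each sample in 1 colour. One-round migration (ORM) cells, 2 arrays, had crossed 3 μm pores of a transwell insert during 24 h and were collected below them. Control cells, 2 arrays, had not migrated, and the treatment notes describe them as a normal suspension culture. The study calls the cells of these arrays only control cells, and elsewhere took non-migrating cells from the chamber above the pores. The sources do not settle which served here. The study's chemotaxis assays had serum-free medium above the pores and serum below. Passage through the pores, the choice of the cells that cross and, against a suspension culture, vessel and medium cannot be told apart. The titles and sources name no further agent or genetic change in either group. The free-text description field of the labels names other treatments (a control and 3D culture for the ORM arrays, suspension after 3D confinement for the control arrays), and the groups were taken from the titles and sources, which name ORM or control. The labels call the arrays of a group biological replicates, and no source says whether they came from separate cultures, so p-values measure the spread between these 4 arrays only.

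CCT is the chaperonin of the eukaryotic cytosol, a barrel of stacked rings in which each ring holds one copy of every subunit. Newly made proteins enter the barrel and fold inside it as ATP is hydrolysed. Actin and tubulin depend on it to reach their native form, as do several proteins with beta-propeller folds, among them the APC/C activators CDC20 and FZR1 and the beta subunits of G proteins. Because every subunit has its own fixed place in the ring, the complex needs all of them. In the ring CCT6A and CCT8 sit side by side, and CCT3 is the other neighbour of CCT6A. Whether the place of a subunit in the ring goes with the differences below was not tested. Prefoldin hands unfolded actin and tubulin to the complex, and phosducin-like proteins bind it and modulate folding.

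The sequences before the gene starts of CCT8, CCT3 and CCT7 are shown first, since these are the genes with the highest, the lowest and no difference between ORM and control cells. Each is the 250 bases before the annotated start (RefSeq, GRCh38.p14), 5′ to 3′ on the strand of the gene. Capitals mark matches to any of 6 motifs, each searched on both strands. The E-box was searched as the letters CACGTG and the CCAAT box by its name. The GC box was searched as GGGCGG, and the site of ETS factors as CCGGAAG. For NRF1 one arm of its site, GCGCATG, was used, and for heat shock factors a pair of units, GAANNTTC. No match overlapped another in these windows.
CCT8, chr21:29073649-29073898, minus strand: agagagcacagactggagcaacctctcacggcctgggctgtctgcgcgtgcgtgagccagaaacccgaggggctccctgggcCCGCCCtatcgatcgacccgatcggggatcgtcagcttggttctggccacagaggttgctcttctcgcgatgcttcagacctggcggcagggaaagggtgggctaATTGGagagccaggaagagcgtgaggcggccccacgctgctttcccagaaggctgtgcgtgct
CCT3, chr1:156338293-156338542, minus strand: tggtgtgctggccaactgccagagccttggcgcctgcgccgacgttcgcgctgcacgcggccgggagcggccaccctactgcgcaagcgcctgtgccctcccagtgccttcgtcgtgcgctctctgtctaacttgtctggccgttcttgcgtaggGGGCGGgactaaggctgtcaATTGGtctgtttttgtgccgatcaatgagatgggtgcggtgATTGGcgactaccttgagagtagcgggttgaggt
CCT7, chr2:73234058-73234307, plus strand: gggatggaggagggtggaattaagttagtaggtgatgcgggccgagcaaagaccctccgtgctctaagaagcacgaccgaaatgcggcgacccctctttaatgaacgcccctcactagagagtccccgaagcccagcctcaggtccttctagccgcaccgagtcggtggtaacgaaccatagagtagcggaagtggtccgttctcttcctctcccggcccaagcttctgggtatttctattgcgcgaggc

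CCT8 held 1 CCAAT match, on the opposite strand with its first base 63 bases before the start, and 1 GC box 168 bases before it. CCT3 held 2 CCAAT matches, 75 and 34 bases before its start, and 1 GC box at 95 bases. CCT7 held none of the 6 motifs, and neither did CCT4. CCT2 held a CCAAT match at 91 bases, a GC box at 45 and an ETS match at 15. In TCP1, whose transcript was not analysed here, a CCAAT match, a GC box and 1 pair of heat shock units were found. Of all 35116 promoter windows of this length, 32.0% held CCAAT, 42.6% a GC box, 8.52% the ETS letters, 6.34% the E-box, 5.78% the heat shock pair and 3.77% the NRF1 arm, and 31.1% held none of the 6. These shares count all windows, also any that lie inside a gene, unlike the windows of the subunit genes. A match is a run of letters and not a shown site of a factor. Of the measured genes with a window, CCT8, CCT3 and CCT2 held CCAAT and had log2 differences between ORM and control cells of 0.62, -0.23 and 0.20. CCT4 and CCT7 held none of the motifs and had 0.25 and 0.00. A link of these letters to the differences was not tested. For CCT6A no window was given, and 3 further windows, among them that of CCT5, lay inside the annotated gene and were not read.

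Of the subunit genes, CCT8 and CCT6A had the largest differences, with signals about 1.5-fold higher in ORM cells, and CCT3 was the only one with a difference below 0. CCT5, CCT4 and CCT2 had smaller positive differences and CCT7 had none. None of the 7 genes passed the threshold used here, a fold change over 1.8, the size taken from the study, with an unadjusted p under 0.05 (limma). By the same rule 0.424% of all probe sets were called higher and 0.28% lower in ORM cells. The values below are log2 signals as deposited, with 1 unit a doubling, and differences are log2 fold changes, ORM minus control, with standard errors from limma. Less of a transcript per cell and fewer cells that make it cannot be told apart in such bulk RNA.

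CCT8, the theta subunit, was at 10.36 and 10.49 on the ORM arrays and at 9.87 and 9.75 on the control arrays. Both ORM arrays lay above both control arrays, and the gap between the groups was wider than the gap within either. The log2 fold change was 0.62, a fold of 1.53 (standard error 0.16, 95% interval 0.22 to 1.01), with an unadjusted p of 0.00792 and an adjusted p of 0.428 over all probe sets (limma). By this difference CCT8 lay above 97.9% of all probe sets. CCT6A, the zeta subunit, was at 10.16 and 10.34 in ORM cells and at 9.78 and 9.54 in control cells. Here too the groups did not overlap, while both replicates of each group lay 0.18 and 0.24 apart. The log2 fold change was 0.59 (standard error 0.18, 95% interval 0.17 to 1.01), a fold of 1.51, with an unadjusted p of 0.0137 and an adjusted p of 0.428 (limma).

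CCT5, the epsilon subunit, was steady in ORM cells at 10.97 and 10.96 and was at 10.78 and 10.53 in control cells. The groups did not overlap, and control replicate 2 was the lower of the controls. Its log2 fold change was 0.31 (standard error 0.17, 95% interval -0.10 to 0.72), with an unadjusted p of 0.114 from limma. CCT4, the delta subunit, had the same arrangement, with 9.83 and 9.84 in ORM cells and 9.67 and 9.50 in control cells. Its log2 fold change was 0.25 (standard error 0.16, 95% interval -0.14 to 0.64), with an unadjusted p of 0.17 from limma. For CCT5 and CCT4 the groups were thus in order on all arrays, while the 95% interval of the difference included 0.

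CCT2, the beta subunit, was at 10.80 and 10.86 in ORM cells and at 10.90 and 10.37 in control cells. Control replicate 1 was the highest of the 4 arrays and control replicate 2 the lowest, so that the ORM values lay between them. The log2 fold change was 0.20 (standard error 0.21, 95% interval -0.32 to 0.71), and it was -0.07 without control replicate 2. CCT7, the eta subunit, was at 10.41 and 10.67 in ORM cells and at 10.49 and 10.59 in control cells, with a mean of 10.54 in both groups. Its log2 fold change was 0.00 (95% interval -0.42 to 0.42), and it was -0.10 with quantile normalization and 0.05 with each array centred on its median.

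CCT3, the gamma subunit, was at 11.06 and 11.19 in ORM cells and at 11.37 and 11.33 in control cells. Both ORM arrays lay below both control arrays, opposite to CCT8, CCT6A, CCT5 and CCT4. Its log2 fold change was -0.23 (standard error 0.16, 95% interval -0.61 to 0.16), with an unadjusted p of 0.205 and an adjusted p of 0.573 (limma). With 2 arrays in each group the smallest two-sided p of an exact permutation test is 0.333, so this design allows no call on ranks alone.

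**Figure D1:**
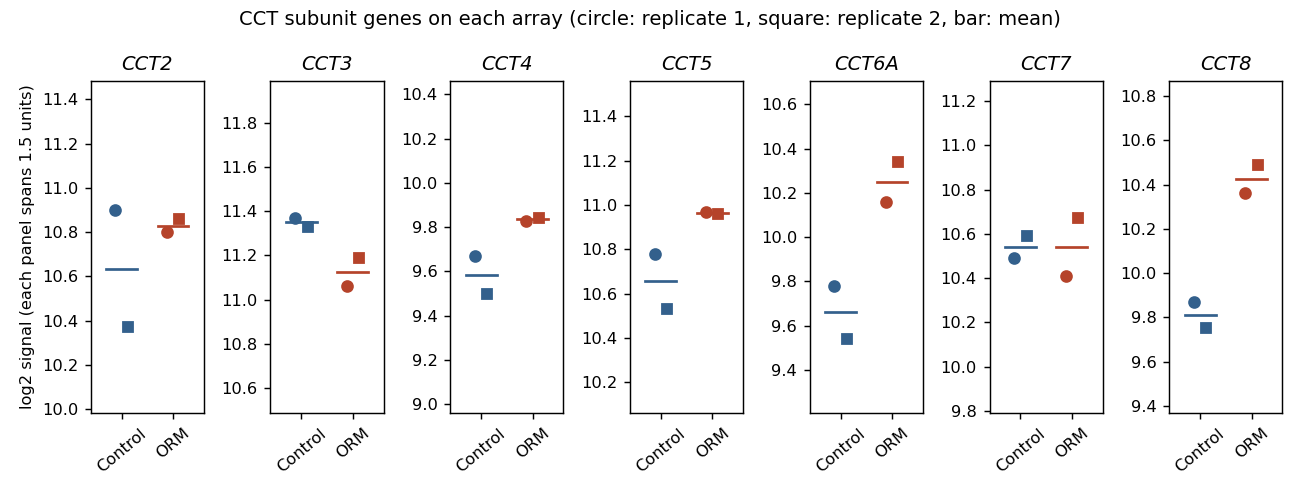
Log2 signal (y axis, each panel 1.5 units high around the gene's own mean) of 7 CCT subunit genes on control and ORM arrays, with circles for replicate 1, squares for replicate 2 and a bar for the mean of each group. CCT8 and CCT6A show the widest gaps between groups, CCT3 is lower on both ORM arrays, and the control arrays of CCT2 lie on either side of the ORM arrays.

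Across the 7 genes the median log2 fold change was 0.25, with a range of -0.23 to 0.62, against a median of -0.035 over all probe sets. In 4 genes both ORM arrays lay above both control arrays, in 1 below, and in 2 the groups overlapped. Over all probe sets 21.4% lay above and 24.2% below in this way. The subunit genes are bright, however, with every value at 9.50 or higher where the arrays had medians of 5.96 to 6.04, and bright probe sets lay higher in ORM cells more often than others did. Among the 2096 probe sets whose mean log2 signal was 9 or higher, both ORM arrays lay above both control arrays in 45.2% and below in 17.3%, and the median log2 fold change was 0.11. An unadjusted p under 0.05 was reached by 2 of the 7 genes, CCT8 and CCT6A, both higher in ORM cells, and by 5.91% of all probe sets and 8.87% of the bright ones in that direction. In the other direction it was reached by 0 of the 7 genes and 5.5% of all probe sets. With a fold change over 1.5 in place of 1.8 the same 2 genes passed, where 2.25% of all probe sets passed higher and 2.14% lower in ORM cells. Over 7 genes such counts describe the list and show nothing particular to it. No probe set of the arrays had an adjusted p under 0.05 (lowest 0.428, limma), while 2447 had an unadjusted p under 0.05.

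**Figure D2:**
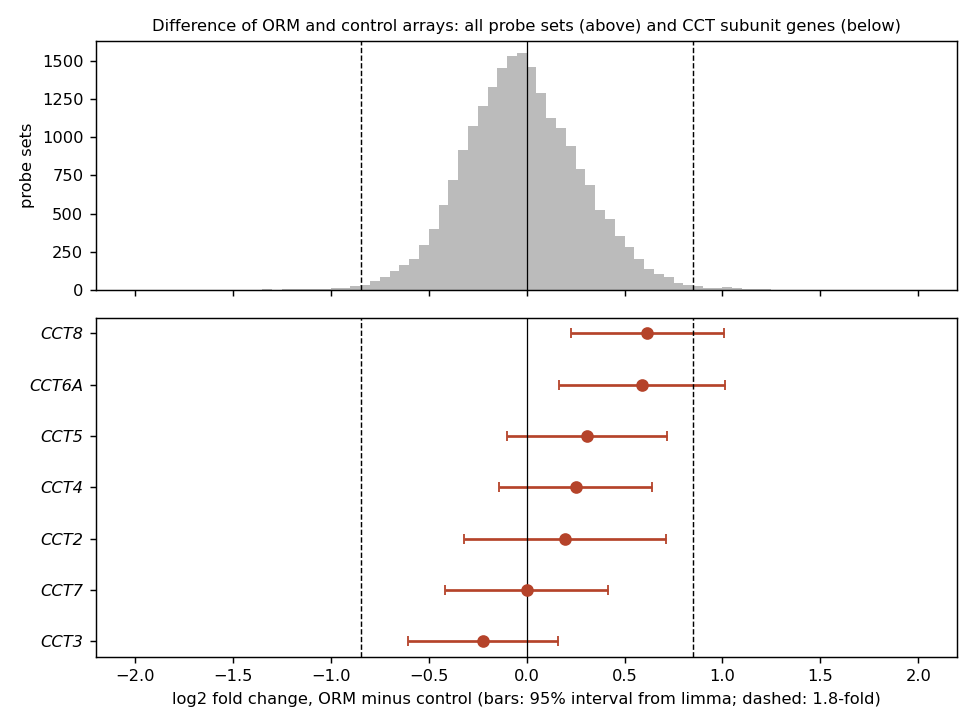
Upper panel, number of probe sets (y axis) by log2 fold change of ORM minus control arrays (x axis) for all 21448 probe sets, and lower panel, the log2 fold change of each CCT subunit gene with its 95% interval from limma on the same axis (dashed lines, 1.8-fold). The intervals of CCT8 and CCT6A lie above 0, those of the other 5 genes include 0, and no gene reaches the dashed lines with its central value.

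The differences of the subunit genes were also compared with each other, array by array. The signal of CCT3 minus that of CCT8 on the same array was 1.5 and 1.58 in control cells and 0.70 and 0.70 in ORM cells, a difference between the groups of -0.84 on the log2 scale. Such a within-array difference of a pair of probe sets says nothing of which transcript is more abundant, but its change between groups is not touched by a constant shift of a whole array. The signal of CCT3 minus that of CCT6A was 1.59 and 1.79 in control cells and 0.90 and 0.85 in ORM cells, a difference of -0.82. For CCT6A minus CCT8 the values were -0.09 and -0.21 in control cells and -0.20 and -0.15 in ORM cells, where the groups overlapped. These pairs were chosen after the values had been seen. Most pairs of the subunit genes had groups that did not overlap, but the pairs reuse the same genes and are not independent. How often this occurs among pairs of other probe sets was not tested, so it shows nothing particular to the subunit genes.

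Control replicate 2 had the most distant profile of the 4 arrays, and the size of the differences depended on it. Taken probe set by probe set, the control arrays differed from each other with an SD of 0.404 on the log2 scale, and the ORM arrays with an SD of 0.248. Of the 7 subunit genes 6 were lower in control replicate 2 than in control replicate 1, CCT7 being the exception, with a median gap of 0.17. CCT2 had the widest gap between the control arrays, 0.53, followed by CCT5 at 0.25 and CCT6A at 0.24. Between the ORM arrays the gaps ran from 0.01 for CCT4 and CCT5 to 0.26 for CCT7, and for CCT3, CCT7 and CCT8 they were wider than between the control arrays. Without control replicate 2 the median of the 7 genes was 0.17, with CCT8 at 0.56 and CCT6A at 0.47. Without control replicate 1 the median was 0.44, with CCT2 at 0.46 and CCT5 at 0.44. Without ORM replicate 2, CCT8 was at 0.55 and CCT6A at 0.50, and without ORM replicate 1 both were at 0.68. Such fits leave 1 array in a group, so no p-values are given for them.

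**Figure D3:**
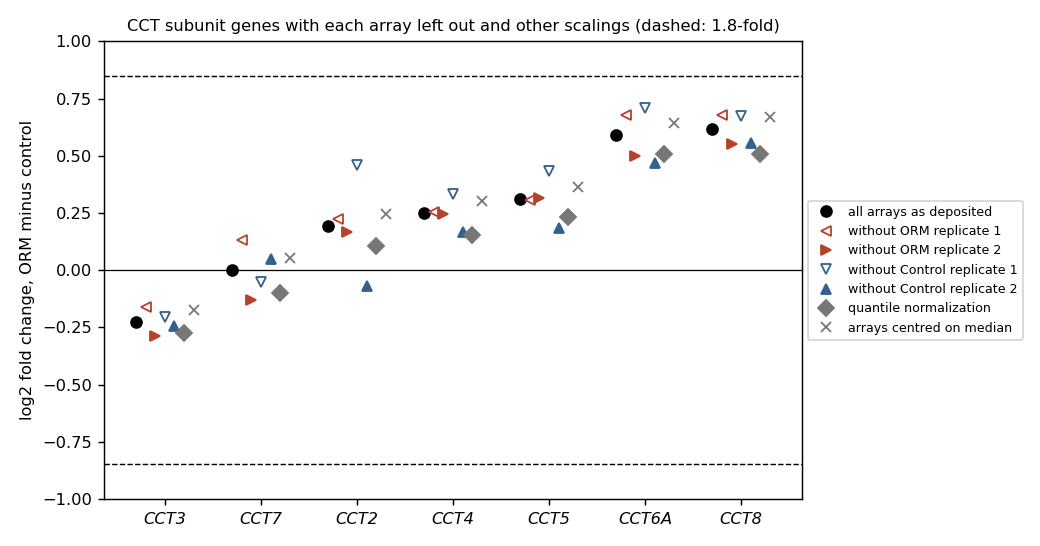
Log2 fold change of ORM minus control (y axis) for each CCT subunit gene with all arrays, with each array left out, with quantile normalization and with arrays centred on their median (symbols in the key, dashed lines at 1.8-fold). CCT6A and CCT8 stay at 0.47 or higher and CCT3 stays below 0 at every setting shown, whereas CCT2 and CCT7 fall on either side of 0.

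In all 16 settings computed, the reported one included, CCT6A and CCT8 had the 2 highest values of the 7 genes and CCT3 the lowest. Only quantile normalization and the arrays left out could change this order, since the other settings kept each difference or shifted all genes alike. The settings share most of their arrays, and none is an independent repeat. CCT8 ranged from 0.51 with quantile normalization to 0.68 without ORM replicate 1, and CCT6A from 0.47 to 0.71. CCT3 ranged from -0.29 without ORM replicate 2 to -0.16 without ORM replicate 1. By the methods' t-test the unadjusted p was 0.0201 for CCT8, 0.059 for CCT6A and higher for the other genes. With the fold change of 1.8, 0 of the 7 genes passed by this test, against 49 of all 21448 probe sets.

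The relatives of the CCT subunits outside the complex had small differences. Of 5 genes, 0 passed the threshold, and the median log2 fold change was 0.17. CCT6B, a second form of the zeta subunit known from testis, was dim at 3.73 and 3.60 in ORM cells and 3.32 and 3.60 in control cells, under the lower quartile of each array (4.14 to 4.26). Whether the probes of CCT6A also read transcripts of CCT6B or of pseudogenes was not tested. MKKS, BBS10 and BBS12 encode chaperonin-like proteins that work with CCT in the assembly of the BBSome, a complex of cilia. MKKS lay 0.21 higher in ORM cells on the log2 scale (standard error 0.16), with groups that did not overlap. BBS10 and BBS12 were at -0.19 and 0.17, with standard errors of 0.27 and 0.32 that exceed these values.

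Prefoldin, which delivers actin and tubulin to the barrel, had a median log2 fold change of 0.27 over 5 of its 6 genes, with PFDN6 not analysed here. None passed the threshold. VBP1, the prefoldin 3 subunit, was at 7.09 and 7.24 in ORM cells and 6.74 and 6.29 in control cells, a difference of 0.65 on the log2 scale (standard error 0.20, unadjusted p of 0.0168 from limma). PFDN1 and PFDN2 both had 0.27. PFDN5 had -0.36 (standard error 0.22), with 9.44 and 9.55 in ORM cells against 9.58 and 10.12, so that prefoldin genes too lay on both sides of 0. PFDN4, the remaining subunit with a named probe set, lay at 0.09.

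In the prefoldin-like and R2TP complexes, which act with HSP90 in building larger assemblies, 0 of 7 genes passed and the median was 0.20. RUVBL1, an ATPase of R2TP, was at 7.74 and 7.94 in ORM cells and 7.23 and 7.49 in control cells, a log2 difference of 0.48 (unadjusted p of 0.0344 from limma). PDRG1, a prefoldin-like subunit, had 0.46 (unadjusted p of 0.0395 from limma). URI1 had 0.37 and RPAP3 0.20, and RUVBL2, the partner of RUVBL1, had 0.12.

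Of the proteins that bind CCT, PDCD5 passed the threshold, the only one of 60 genes in the 10 related lists to do so, where 0.704% of all probe sets were called in either direction. PDCD5 was at 6.99 and 6.67 in ORM cells and 5.80 and 5.77 in control cells. Both ORM arrays lay above both control arrays by more than the gap within either group, and the log2 fold change was 1.05, with a standard error of 0.18, an unadjusted p of 0.000836 and an adjusted p of 0.428 (limma). The phosducin-like genes were not called. PDCL, which helps G protein beta subunits to fold, had a log2 fold change of -0.05, TXNDC9 had -0.05 and PDCL3 had 0.24 (standard error 0.25).

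Among the clients of CCT, the genes of the cytoplasmic actins had differences within their standard errors. ACTB, the gene of beta-actin, was at 10.29 and 10.23 in ORM cells and 10.32 and 10.41 in control cells, a difference of -0.11 on the log2 scale (standard error 0.16). ACTG1, the gene of gamma-actin, was between 11.99 and 12.01 on 3 arrays, both ORM arrays among them, and at 11.88 in control replicate 2, a difference of 0.05 (standard error 0.16). Among the actin-related proteins, ACTR3, a subunit of the Arp2/3 complex that branches actin filaments, had 0.51 (standard error 0.21), and ACTL6A, a subunit of chromatin remodelling complexes, had 0.61 (unadjusted p of 0.00897 from limma). With 4 of the 7 listed genes measured, the median of the actin group was 0.28 and none passed the threshold.

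Of 14 tubulin genes 0 passed the threshold and 0 had an unadjusted p under 0.05 (limma), with a median of 0.04 and a range of -0.33 to 0.18. TUBB was at 11.90 and 11.94 in ORM cells and 11.74 and 11.75 in control cells, a difference of 0.18 on the log2 scale (standard error 0.16). TUBB6 had -0.33 (standard error 0.19), TUBD1 had 0.16 and TUBB4B had 0.11. Tubulin folding cofactors complete the folding of tubulin after its release from CCT. Of the 7 genes in the list of these cofactors, which also holds ARL2 and TBCEL, 0 passed the threshold. Their log2 fold changes lay on both sides of 0, with a median of 0.15. TBCC, which triggers GTP hydrolysis on the assembled dimer, was at 6.11 and 6.05 in ORM cells and 6.51 and 6.83 in control cells, a log2 difference of -0.59 (unadjusted p of 0.0149 from limma). ARL2, a small GTPase that binds TBCD, had -0.34, while TBCD and TBCEL had 0.35 and 0.34.

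For 11 other clients the median was -0.005 and none passed. GNB1, a G protein beta subunit, had 0.32 (standard error 0.17), RPTOR of mTORC1 0.27, CDC20 0.17 and FZR1 -0.18. In the mitochondrial chaperonin, which is a separate machine of another family, HSPE1 was at 9.85 and 10.09 in ORM cells and 9.39 and 8.89 in control cells. Its difference was 0.83 on the log2 scale (standard error 0.22, unadjusted p of 0.00774 from limma), just under the threshold of 0.848, while its partner HSPD1 had 0.14. HSF1, the main heat shock transcription factor, was at 9.29 and 9.49 against 9.53 and 9.30, a difference of -0.03, and HSF2 was not analysed here.

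**Figure D4:**
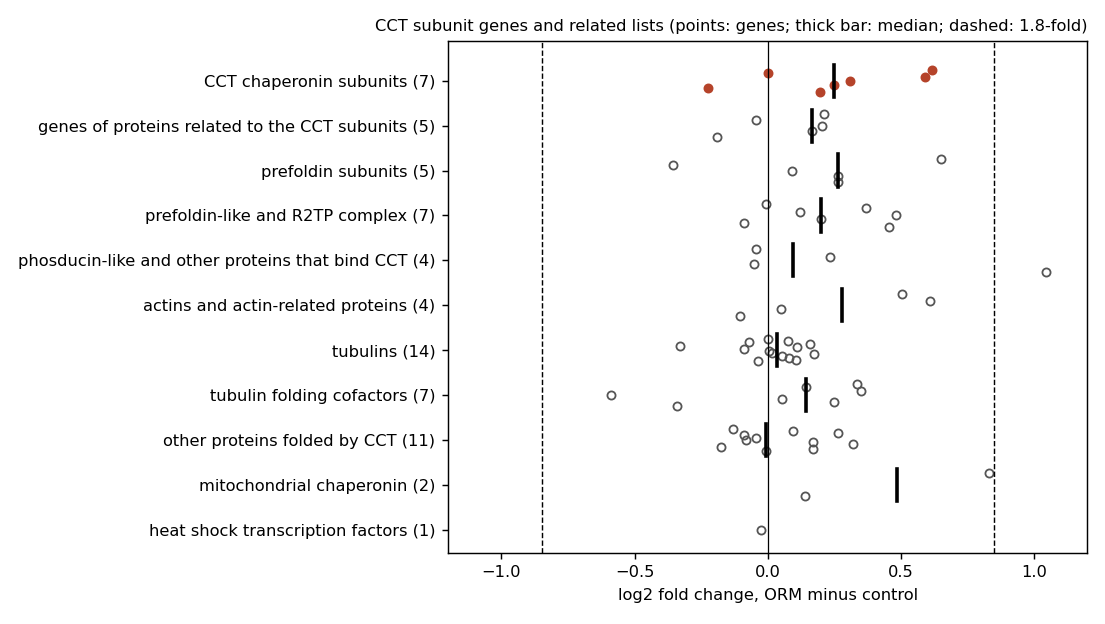
Log2 fold change of ORM minus control (x axis) for the CCT subunit genes (filled points) and 10 related lists (open points), with the number of genes measured in parentheses, a thick bar for the median and dashed lines at 1.8-fold. PDCD5 at 1.05 is the only point beyond a dashed line, HSPE1 at 0.83 lies just inside, and the tubulins lie between -0.33 and 0.18.

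The mean pattern of the 7 subunit genes over the arrays, taken as deviations from each gene's own mean, was 0.07 and 0.18 in ORM cells and -0.03 and -0.21 in control cells. Of 17702 other probe sets with 1 gene symbol, the 5 at the smallest Euclidean distance from this pattern were TMEM33, MRPL24, GPR34, MTMR6 and MED22, at 0.018 to 0.024. Over 4 arrays such likeness is common, and 10.8% of these probe sets lay within 0.2. GPR34 was dim at 2.82 to 3.22. TMEM33, an endoplasmic reticulum membrane protein, was at 9.66 and 9.77 in ORM cells and 9.56 and 9.40 in control cells.

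Genes next to a subunit gene were looked at after the values had been seen. TSACC, next to CCT3 in the RefSeq annotation, was dim at 4.53 and 4.10 in ORM cells and 3.74 and 4.33 in control cells. COMMD1, next to CCT4, was at 5.97 and 6.30 against 5.76 and 6.02. For both the groups overlapped.

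As a check of the label, the T-cell genes CD3E and LCK were bright on all arrays (11.15 to 11.47 and 11.47 to 11.66), while CD2 was at 5.29 to 5.54, under the median of each array. Of 10 T-cell markers 0 passed the threshold, and their log2 fold changes lay between -0.515 and 0.515 with a median of 0.01. Both ends had an unadjusted p under 0.05 and no overlap of the groups, CD3D with 0.515 (p of 0.0167) and CD247 with -0.515 (p of 0.0273, both from limma), and their part in the differences of the subunit genes was not tested. CD2, CD3D and CD247 were singled out after their values were seen. The B-cell marker MS4A1 lay at 2.59 to 2.86, close to the lowest values of the arrays, while CD79A was at 9.69 to 10.25. Of 17 markers of B, myeloid, erythroid and adherent cells 0 passed. Only LYZ among these had an unadjusted p under 0.05, with a log2 fold change of -0.505 (p of 0.0184 from limma). It was dim at 2.96 and 3.11 in ORM cells and 3.57 and 3.51 in control cells.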

How the data were processed

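RNA of 2 ORM and 2 control samples of Jurkat cells was measured on 4 human Clariom S arrays, and the labels give each sample's group in its title. The log2 values per probe set were deposited by the authors after processing, normalization and log2 transformation at a genomics unit. RMA and Transcriptome Analysis Console appear in the processing notes of the submitters, with versions not given in the sources used here. Summarization of probes and background correction were taken as deposited, and the sources name different RNA extraction procedures.

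All 21448 probe sets were tested between ORM and control with limma 3.58.1 in R 4.3.3 (lmFit, eBayes, default settings), without a filter, with Benjamini-Hochberg adjustment over all of them. A call was a fold change over 1.8 with an unadjusted two-sided p under 0.05, with the size of the fold change taken from the study. Symbols came from the platform annotation, which gave 1 symbol for 17709 probe sets and none for 3739, and the brightest probe set stood for a gene. The script was tested on simulated data. The number of arrays limits the precision.

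The median over the subunit genes is over the 7 measured, without TCP1. The subunit genes and the related lists were chosen with earlier results of these data known. The genes named are all subunit genes, and of each related list the genes past the threshold, filled up to 4 by the smallest p, with ACTB and ACTG1 always, and the 5 genes nearest in pattern. PFDN4, RUVBL2, TSACC, COMMD1 and the markers named were added after their values were seen. Alternatives were quantile normalization, median centring, the removal of probe sets whose mean log2 signal was under 5 (or under 9, added after seeing the data), limma with a mean-variance trend and robust options, a replicate block, the methods' t-test (variances taken as equal), other thresholds, means over probe sets of a gene and each array left out, where the lone array of a group was assumed to vary like the other group. A comparison of protein sequences was not run.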

Additional observations from a re-analysis of the deposited data

How the results depend on the processing

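Of the 7 subunit genes 0 passed the threshold with all alternatives but one. At a fold change over 1.5, 2 passed, CCT8 and CCT6A, where 2.25% of all probe sets passed upward. At that size 5 of the 60 genes of the related lists passed, VBP1, PDCD5, ACTL6A and HSPE1 higher and TBCC lower in ORM cells. In either direction 941 of all 21448 probe sets passed. The number of genes of the related lists past the threshold was 1 as reported, 2 with each array centred on its median (HSPE1 added, at 0.88), 0 with an adjusted p under 0.05 and 0 among the bright probe sets (mean log2 signal 9 or higher, chosen after seeing the data), and ranged from 1 to 3 with 1 array left out. Without control replicate 1 VBP1 was at 0.88 and HSPE1 at 1.08, and without ORM replicate 1 HSPE1 was at 0.95. Over all probe sets 151 passed (91 higher and 60 lower, against 123 and 42 with centring), 49 by the methods' t-test, 941 at a fold change over 1.5, 66 over 2, 0 with an adjusted p under 0.05 and 4 among the bright ones. With 1 array left out the count ranged from 100 to 1009, the latter without control replicate 1 and the former without control replicate 2, and it was 235 without ORM replicate 1. The median of the subunit genes ranged from 0.17 to 0.44 with 1 array left out and was 0.15 with quantile normalization. A change of sign was found for CCT2 (-0.07 without control replicate 2, range to 0.46), TXNDC9 (0.0075 with centring, and -0.18 to 0.09 with 1 array left out), HSF1 (0.028 with centring, -0.14 to 0.09 with 1 array left out), and for PDCL (0.0025 with centring) and ACTG1 (-0.0019 with quantile normalization), while CCT7, at 0.00, had no direction to keep. With 1 array left out the ranges also crossed 0 for BBS10 (-0.595 to 0.215), BBS12 (-0.34 to 0.67), PDCL3 (-0.03 to 0.5), ACTG1 (-0.015 to 0.115), TUBB4B (-0.01 to 0.23) and TUBD1 (-0.17 to 0.49). The cause was not tested. Under the alternatives, those with 1 array left out included, 15 values of single genes changed sign. With an adjusted p under 0.05, PDCD5 no longer passed. The replicate number pairs nothing in the labels, and the log2 differences between replicates 1 and 2 correlated at r = 0.0929 between ORM and control across probe sets, which are not independent replicates. With the replicate number as a block 162 probe sets and 0 subunit genes passed, and CCT8 and CCT6A had unadjusted p-values of 0.0158 and 0.0254 (limma).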
